A study of Rattus norvegicus with 49 samples.

Results

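Gene expression was compared between the livers of female F344 rats given furan at 2 mg/kg (5 rats) and at 0.5 mg/kg (5 rats), the step between the highest doses of the series. The arrays were chosen by the animal codes of their scanner files (FE for 2 mg/kg and FD for 0.5 mg/kg), which gave 10 of the 49 arrays. The sample labels give the same sex and dose. The difference between these groups is not taken against vehicle controls, although control arrays help to set the slide terms of the fit described below. The rats were 7 to 8 weeks old at the start and received furan in corn oil by gavage on 5 days a week for 90 days, and the liver was taken a day after the last dose. Each array compared the liver RNA of a single rat (Cy5) with one universal rat reference RNA (Cy3), so every level below is a log2 liver over reference ratio, and all arrays had the same dye orientation. The other 39 arrays were females at 0, 0.03 and 0.12 mg/kg and males at all 5 doses.

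Furan is oxidised in hepatocytes by cytochrome P450 enzymes, mainly CYP2E1, to a reactive dialdehyde that binds glutathione and proteins. Glutathione S-transferases, aldo-keto reductases and export pumps belong to the defence against such electrophiles, and many of their genes are targets of the transcription factor NRF2. The bile duct epithelium is a known site of furan toxicity in the rat. Rat liver is also strongly sex-biased: many cytochromes P450, transferases and transporters differ between females and males under the control of growth hormone.

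No difference in array quality was detected between the doses, though 5 arrays against 5 cannot show that they were alike. Liver spots well above background ranged from 44.8% to 64.4% of spots at 0.5 mg/kg and from 44.3% to 64.3% at 2 mg/kg. The share of liver spots well above background was 54.5% ± 8.02 (SD, n = 5) at 0.5 mg/kg and 53.1% ± 8.24 (SD, n = 5) at 2 mg/kg, a difference of -1.35 percentage points (2-sided exact permutation test, p = 0.762, where the smallest p possible is 0.00794). All 14 hepatocyte markers tested were well above background on all 10 arrays, with a mean level of 4.85 to 6.27 per array. Pairs of arrays within a group correlated at 0.937 to 0.981 over probes. The 10 arrays lay on 6 of 8 slides, and slides 2, 7 and 8 held both doses. Slide was therefore a block in the limma fit, which used 48 arrays: a male 0.03 mg/kg array with 5.06% of liver spots above background was left out.

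Very few probes were called between 2 and 0.5 mg/kg in females, which does not show that few differed. Of 17661 probes tested, 2 were called (0.0113% of all probes, adjusted p at most 0.05 and a change of at least 1.5-fold), both lower at 2 mg/kg: Plekhb1, which encodes a pleckstrin homology domain protein, and a probe with no gene name in the tables used here (A_64_P006473). No probe was called higher. At an unadjusted p under 0.05 there were 1389 probes (7.86%), with 981 higher (5.55%) and 408 lower (2.31%) at 2 mg/kg. With no slide term, 258 probes (1.46%) had an unadjusted p under 0.05. A change of at least 1.5-fold was also reached by 35 of those higher (0.198%) and 19 of those lower (0.108%). The values of the 2 doses did not overlap for 29 probes that were higher (0.164%) and 33 that were lower (0.187%). Changes over all probes ranged from -1.28 to 1.40 on the log2 scale around a median of 0.01, with a median SE of 0.11. The excess of higher over lower probes depended on scaling: 70.6% of the probes with unadjusted p under 0.05 were higher here, 90.5% with median centring in place of loess, 60.5% from the liver channel alone, 56.8% from the series matrix values, 55.4% with no slide term and 47.7% in the 10 arrays alone with no slide term, where the lower probes were the more numerous.

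**Figure D1:**
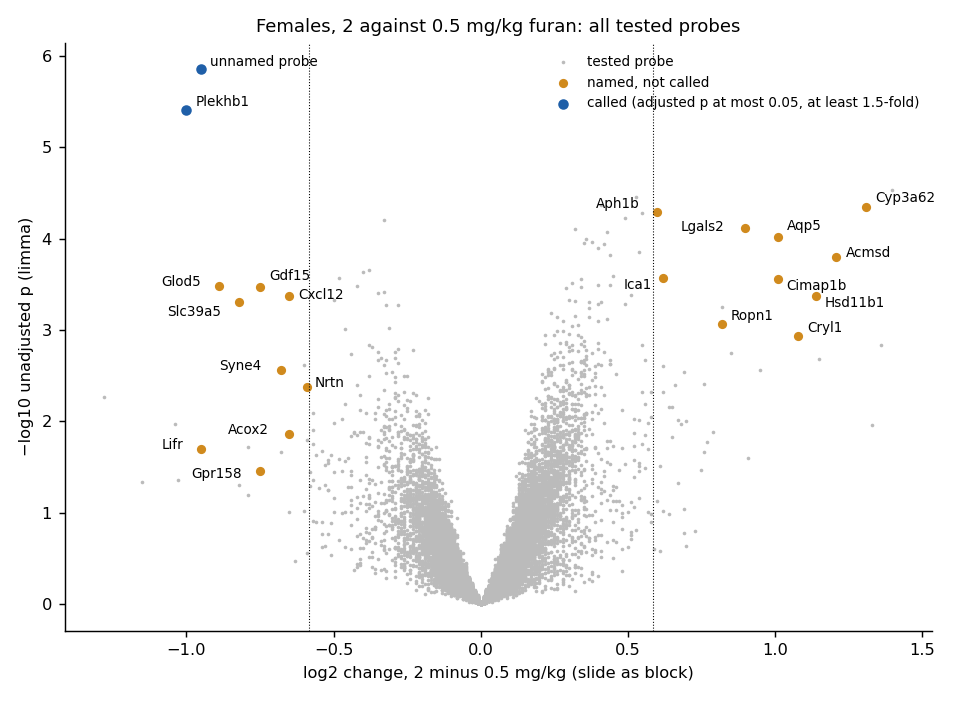
Log2 change from 0.5 to 2 mg/kg in females (x axis) against -log10 of the unadjusted limma p (y axis) for the 17661 probes tested. Blue points are the 2 called probes, orange points the 19 other named genes, which were not called, and dotted lines mark 1.5-fold.

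Plekhb1 fell 2.00-fold, by 1.0 ± 0.18 (SE) on the log2 scale (limma, adjusted p = 0.0346). Its levels at 0.5 mg/kg were 2.40, 1.82, 2.13, 2.25 and 2.36 in rats 62, 64, 68, 70 and 72, and at 2 mg/kg they were 0.96, 1.41, 0.72, 1.16 and 1.54 in rats 82, 83, 85, 90 and 92. Every rat at 2 mg/kg lay below every rat at 0.5 mg/kg. The difference was -1.20 within slide 2, -0.99 within slide 7 and -0.88 within slide 8. Across the female doses the mean level was 2.58 at 0, 2.39 at 0.03, 2.30 at 0.12, 2.19 at 0.5 and 1.16 at 2 mg/kg, so the last step was wider than the whole span of the lower doses. Males showed the same step, with a change of -1.28 ± 0.19 (limma, adjusted p = 0.00017), and the test of the difference between the sexes did not pass (0.28 ± 0.25, limma, adjusted p = 0.821).

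The unnamed probe fell 1.93-fold, by 0.95 ± 0.16 on the log2 scale (limma, adjusted p = 0.0249). Its levels were 2.97, 3.15, 2.77, 3.08 and 3.80 in rats 62, 64, 68, 70 and 72 at 0.5 mg/kg, and 1.99, 2.19, 1.5, 2.69 and 2.20 in rats 82, 83, 85, 90 and 92 at 2 mg/kg. The groups did not overlap, and the within-slide differences were -1.12, -0.77 and -0.67 on slides 2, 7 and 8. In males the same step was 0.00 ± 0.17. The difference between the sexes was -0.95 ± 0.23 and did not pass after adjustment over all probes (limma, adjusted p = 0.453). Its mean level at 2 mg/kg in females, 2.12, was equal to that of the male controls, 2.12, whereas the female controls were at 3.37.

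Both calls depended on single arrays and on the fit. No probe was called without rat 64, 70 or 72 of the 0.5 mg/kg group or without rat 83, 85 or 90 of the 2 mg/kg group, 1 was called without rat 62, and 7 were called without rat 82, 5 of them higher at 2 mg/kg. Over these fits the change of Plekhb1 stayed between -1.12 and -0.89 and that of the unnamed probe between -1.06 and -0.88.

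**Figure D2:**
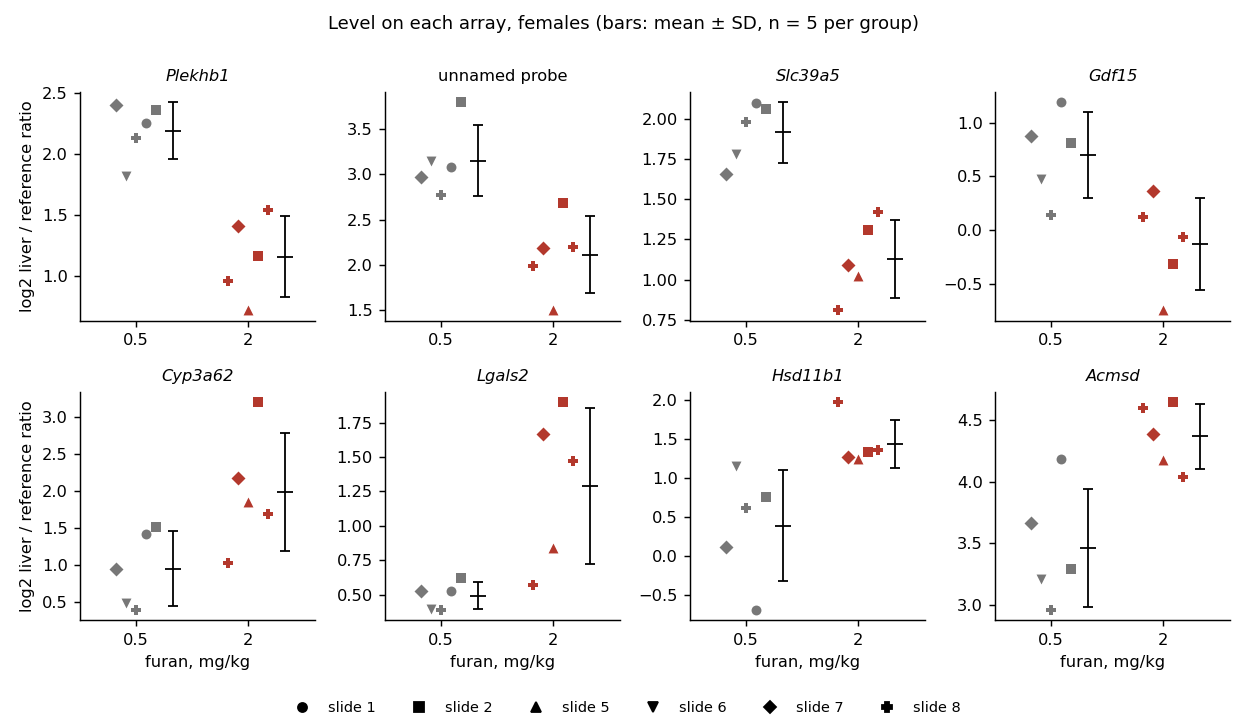
Log2 liver over reference ratio (y axis) on each array of females at 0.5 mg/kg (grey) and 2 mg/kg (red), with the slide as the symbol and mean ± SD (n = 5) as bars. Plekhb1, the unnamed probe, Slc39a5 and Hsd11b1 do not overlap between the doses, while Gdf15, Cyp3a62, Lgals2 and Acmsd do.

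The promoters of Plekhb1, the gene called, and of Cyp3a62, which had the highest change among the 10 genes named above 0, are shown from RefSeq (GRCr8), 250 bases before to 50 bases after the gene start, each 5′ to 3′ on the strand of the gene, with capitals marking matches to the motifs searched. Plekhb1 lies on the minus strand (chr1:164425123-164425422) and Cyp3a62 on the plus strand (chr12:21511513-21511812).
Plekhb1: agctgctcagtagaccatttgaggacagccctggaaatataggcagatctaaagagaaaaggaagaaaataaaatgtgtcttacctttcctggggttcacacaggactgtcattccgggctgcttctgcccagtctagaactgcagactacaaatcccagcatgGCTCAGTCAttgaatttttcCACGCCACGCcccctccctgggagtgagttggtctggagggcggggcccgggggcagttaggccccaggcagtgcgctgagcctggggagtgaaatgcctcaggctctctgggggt
Cyp3a62: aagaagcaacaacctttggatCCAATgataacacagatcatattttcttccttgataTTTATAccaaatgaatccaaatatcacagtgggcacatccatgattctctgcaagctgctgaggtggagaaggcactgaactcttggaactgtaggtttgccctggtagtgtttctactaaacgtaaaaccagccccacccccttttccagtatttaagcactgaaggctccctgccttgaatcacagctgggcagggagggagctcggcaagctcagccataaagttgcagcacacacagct
The motifs, searched on both strands, were TGACNNNGC (the core of the antioxidant response element, bound by NRF2), GCGTG (the core of the xenobiotic response element, bound by the aryl hydrocarbon receptor), CACGTG (an E-box), CCAAT and TATAAA. In Plekhb1 the capitals are 1 match to the antioxidant response element core, which starts at position -86, and 2 adjacent matches to the xenobiotic response element core. In Cyp3a62 they are a CCAAT at -229 and a TATAAA, on the other strand, at -193. Of the 18 named genes with a promoter in the table (Acmsd and Hsd11b1 had none), 5 held TGACNNNGC, which 12.2% of 27457 promoters hold, and 8 held GCGTG, against 31.1%. CACGTG was in 2 of 18 (6.65% of all promoters), CCAAT in 6 (37.7%) and TATAAA in 3 (14.3%). A match describes letters only.

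The 10 named genes above 0 were those with the smallest p among probes with a gene name at least 1.5-fold higher, and none was called. The highest change of all belonged to a probe without a gene name, A_64_P089445, whose mean level was 0.04 in the lower and 1.33 in the higher dose group, with a fitted change of 1.40 ± 0.29 (limma, adjusted p = 0.112) and a male step of 2.00 (limma, adjusted p = 0.000181). The first group of them bears on metabolism. Cyp3a62 encodes a cytochrome P450 of the CYP3A family. Its levels were 0.95, 0.49, 0.39, 1.42 and 1.51 in rats 62, 64, 68, 70 and 72, and 1.02, 2.18, 1.85, 3.21 and 1.69 in rats 82, 83, 85, 90 and 92. Rat 82 lay inside the range of the lower dose. The change was 1.31 ± 0.28 (2.48-fold, limma, adjusted p = 0.112), and 1.70, 1.23 and 0.97 within slides 2, 7 and 8. Of the 10 fits that left out an array, the gene passed in 1, without rat 82 (limma, adjusted p = 0.0356). It passed in 4 of 16 other settings, among them the 25 female arrays alone (limma, adjusted p = 0.0267). With no slide term the change was 1.04 (limma, unadjusted p = 0.0635). With median centring it was 0.93 (limma, adjusted p = 0.9). The probe was well above background in 3 of 5 rats at 0.5 mg/kg and in all 5 at 2 mg/kg. Its mean was 1.49 in the female controls, above the 0.95 at 0.5 mg/kg and below the 1.99 at 2 mg/kg. The male step was 1.15 ± 0.29 (limma, adjusted p = 0.0122).

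Hsd11b1, which encodes the enzyme that regenerates active glucocorticoid, did not overlap between the doses. Over all probes, 0.164% were higher with no overlap, and Hsd11b1 was picked by small p. Its levels were 0.12, 1.15, 0.61, -0.69 and 0.75 at 0.5 mg/kg (rats 62, 64, 68, 70 and 72) and 1.97, 1.26, 1.24, 1.33 and 1.35 at 2 mg/kg (rats 82, 83, 85, 90 and 92). The change was 1.14 ± 0.29 (limma, adjusted p = 0.178). Without rat 70, the lowest of its group, it was 0.83. The male step was -0.45 ± 0.30, and the difference between the sexes of 1.59 ± 0.41 had an unadjusted limma p of 0.000394 and an adjusted p of 0.473.

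Acmsd, an enzyme that diverts tryptophan breakdown away from NAD synthesis, was at 3.67, 3.21, 2.96, 4.19 and 3.29 in rats 62, 64, 68, 70 and 72 and at 4.60, 4.39, 4.18, 4.65 and 4.04 in rats 82, 83, 85, 90 and 92. Rat 70 overlapped the higher dose. The change of 1.21 ± 0.29 (limma, adjusted p = 0.129) became -0.01 with the log ratio of the scanner software. Since the female controls were at 4.02 ± 0.55 (SD, n = 5), above the 0.5 mg/kg group at 3.46 ± 0.48 (SD, n = 5), the 2 mg/kg group at 4.37 ± 0.26 (SD, n = 5) lay closer to the controls than to its neighbouring dose. Cryl1, which encodes lambda-crystallin, an enzyme of the uronate cycle, had a change of 1.08 ± 0.30 (limma, adjusted p = 0.281).

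The remaining named genes above 0 encode proteins of membranes, secretion and motility. Lgals2 (galectin 2) was tightly grouped at 0.5 mg/kg, with 0.53, 0.40, 0.39, 0.53 and 0.62 in rats 62, 64, 68, 70 and 72, and widely spread at 2 mg/kg, with 0.57, 1.67, 0.84, 1.90 and 1.47 in rats 82, 83, 85, 90 and 92. Only rat 82 overlapped the lower dose. The change was 0.90 ± 0.20 (limma, adjusted p = 0.114), within-slide differences were 1.28, 1.14 and 0.63, and Lgals2 was 1 of the probes called without rat 82. Aph1b, a subunit of gamma-secretase, and Ica1, islet cell autoantigen 1, did not overlap between the doses, with changes of 0.60 ± 0.13 (limma, adjusted p = 0.112) and 0.62 ± 0.15 (limma, adjusted p = 0.166). The second probe of Aph1b changed by 0.44. For Aqp5, a water channel, the change was 1.01 ± 0.23, for Cimap1b, a ciliary microtubule-associated protein, 1.01 ± 0.25, and for Ropn1, a protein of the sperm tail, 0.82 ± 0.23. Aqp5 was above background in 3 of 5 rats at the lower dose and Ropn1 in 2 of 5. The female control means of Aqp5 and Cimap1b, 0.95 and 2.57, lay above those at 0.5 mg/kg, 0.7 and 2.27. They lay below those at 2 mg/kg, 1.52 and 3.07.

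Among the 9 named genes below 0 other than Plekhb1, none of which was called, 3 did not overlap between the doses. Over all probes, 0.187% were lower with no overlap. The named genes were picked by small p, so their lack of overlap is no separate support. Slc39a5, a zinc importer, was at 1.66, 1.78, 1.98, 2.10 and 2.06 in rats 62, 64, 68, 70 and 72 and at 0.81, 1.09, 1.02, 1.31 and 1.42 in rats 82, 83, 85, 90 and 92. Its highest rat at 2 mg/kg lay below the lowest at 0.5 mg/kg, and the change was -0.82 ± 0.21 (limma, adjusted p = 0.181). Cxcl12, a chemokine, had levels of 2.96 to 3.30 at 0.5 mg/kg and 2.01 to 2.73 at 2 mg/kg, with a change of -0.65 ± 0.17 (limma, adjusted p = 0.178) and of -0.47 by its second probe. Nrtn, which encodes the growth factor neurturin, had a change of -0.59 ± 0.19 (limma, adjusted p = 0.392).

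Gdf15, a stress-induced cytokine, was at 0.88, 0.48, 0.14, 1.19 and 0.81 in rats 62, 64, 68, 70 and 72 and at 0.12, 0.37, -0.74, -0.31 and -0.06 in rats 82, 83, 85, 90 and 92. The ranges overlapped only by rat 83, which lay above rat 68. The change was -0.75 ± 0.19 (limma, adjusted p = 0.166), but within slides it was -1.12, -0.51 and -0.11. Its male step was 0.07 ± 0.19. Glod5, a glyoxalase domain protein, changed by -0.89 ± 0.22, with -1.93, -0.92 and -0.07 within slides 2, 7 and 8. For Lifr, the receptor of leukaemia inhibitory factor, the change was -0.95 ± 0.39, and -0.57 without rat 82. Rats 82, 83, 85 and 92 (1.09, 2.68, 2.57 and 3.04) lay below every rat at 0.5 mg/kg (3.35 to 4.71), and only rat 90 (4.61) overlapped them. Syne4, Acox2 and Gpr158 had changes of -0.68, -0.65 and -0.75, with adjusted p between 0.336 and 0.597 (limma). This probe of Gpr158 was above background in 4 of 5 rats at 0.5 mg/kg and 2 of 5 at 2 mg/kg. The second probe of Gpr158 changed by only -0.10. Acox2 encodes the peroxisomal oxidase of bile acid side chains; its difference of means without slide adjustment was -1.19, and within slide 2 it was -0.15.

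Of the 31 genes named by the study that were tested, chosen there on these same arrays, none was called at this step. An unadjusted p under 0.05 was reached by 7 above 0 and 1 below 0, against 5.55% and 2.31% of all probes. The median of the list was 0.02, beside 0.01 over all probes. Akr7a3, an aldo-keto reductase that reduces aldehydes, was at 1.97, 1.40, 1.03, 1.92 and 1.41 in rats 62, 64, 68, 70 and 72 and at 1.59, 3.45, 2.93, 2.44 and 3.23 in rats 82, 83, 85, 90 and 92. Rat 82 was again inside the range of 0.5 mg/kg. The change was 1.15 ± 0.35 (2.22-fold, limma, adjusted p = 0.323), with 1.02, 1.48 and 1.38 within slides 2, 7 and 8.

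Abcb1b, an export pump of the P-glycoprotein family, gave unequal values by its probes. The brighter changed by 0.56 ± 0.22 and the dimmer, reported after its values were seen, by 1.36 ± 0.40 (2.57-fold, limma, adjusted p = 0.306). By the dimmer probe the levels were -0.29, 0.11, -0.66, -0.07 and 1.0 in rats 62, 64, 68, 70 and 72 and 0.07, 1.87, 1.51, 2.00 and 1.49 in rats 82, 83, 85, 90 and 92. Here too rat 82 stood alone at the lower level. The female means by that probe were -0.98 at 0, -0.83 at 0.03, -0.66 at 0.12, 0.02 at 0.5 and 1.39 at 2 mg/kg, in the order of the dose. By the brighter probe they were 1.29, 1.02, 1.29, 1.35 and 1.87 at the same doses, not in that order. Fabp7, a fatty acid binding protein, had a change of -0.54 ± 0.22, Adh4, an alcohol dehydrogenase, 0.61 ± 0.27, and Dio3, which inactivates thyroid hormone, 0.28 ± 0.14. With no slide term these changes were -0.67, 0.27 and 0.17. The means of Adh4 and Dio3 at 2 mg/kg, 4.19 and 1.06, lay below those of the female controls, 4.6 and 1.4.

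No member of a detoxification list was called. Among 23 NRF2 targets tested, 4 had an unadjusted p under 0.05, all above 0, against 5.55% of all probes, and the list median was 0.09 in females and 0.48 for the male step. These 4 were Akr7a3, Gsta2 (0.64 ± 0.22), Gstp1 (0.79 ± 0.30) and Ephx1, the microsomal epoxide hydrolase (0.41 ± 0.20). Nqo1, the quinone reductase often used as the marker of NRF2 activity, changed by -0.02 ± 0.15. The value of Gsta2 rested on rat 68, at 4.08 while the other 9 rats were at 6.04 to 7.13: without that rat it was 0.18. It was -0.05 with the scanner software log ratio. With the series matrix values, whose columns may not carry the right slide, it was -0.06. The mean of Gsta2 at 2 mg/kg, 6.43, lay below that of the female controls, 6.76. Of 22 glutathione S-transferases, which conjugate glutathione to electrophiles, 5 had an unadjusted p under 0.05, all above 0, against 5.55% of all probes: Gsta2, Gstt1 (0.23 ± 0.09), Gstp1, Gstm4 (0.28 ± 0.12) and Gstm1 (0.43 ± 0.19). These are close paralogs, so that a probe may bind more than 1 of them. With no slide term Gsta2, Gstt1, Gstm4 and Gstm1 changed by 0.38, 0.13, 0.19 and 0.36, with unadjusted limma p of 0.25 to 0.506. Of 29 cytochromes P450, 2 had an unadjusted p under 0.05, Cyp3a62 and Cyp2c22 (0.48 ± 0.19, and 0.11 with no slide term). Both were above 0, against 5.55% of all probes above 0 and 7.86% in either direction, and the list median was -0.01. Cyp2c22 too had a mean at 2 mg/kg, 3.87, below that of the female controls, 4.86. Among 16 aldo-keto reductases 3 had an unadjusted p under 0.05, all above 0, against 5.55% of all probes: Akr7a3, Akr1a1 (0.26 ± 0.12) and Akr7a2 (0.17 ± 0.08). Among 20 transporters 2 did: Abcb1b and Abcc2, the canalicular export pump for glutathione conjugates (0.22 ± 0.09). Both were above 0, against 5.55% of all probes above 0 and 7.86% in either direction. With no slide term Akr7a3, Akr1a1, Abcb1b (brighter probe) and Abcc2 changed by 1.18, 0.20, 0.52 and 0.16. Their unadjusted limma p were then 0.00391, 0.354, 0.0486 and 0.186. None of 16 glucuronosyl- and sulfotransferases had an unadjusted p under 0.05, and their median was -0.09.

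**Figure D3:**
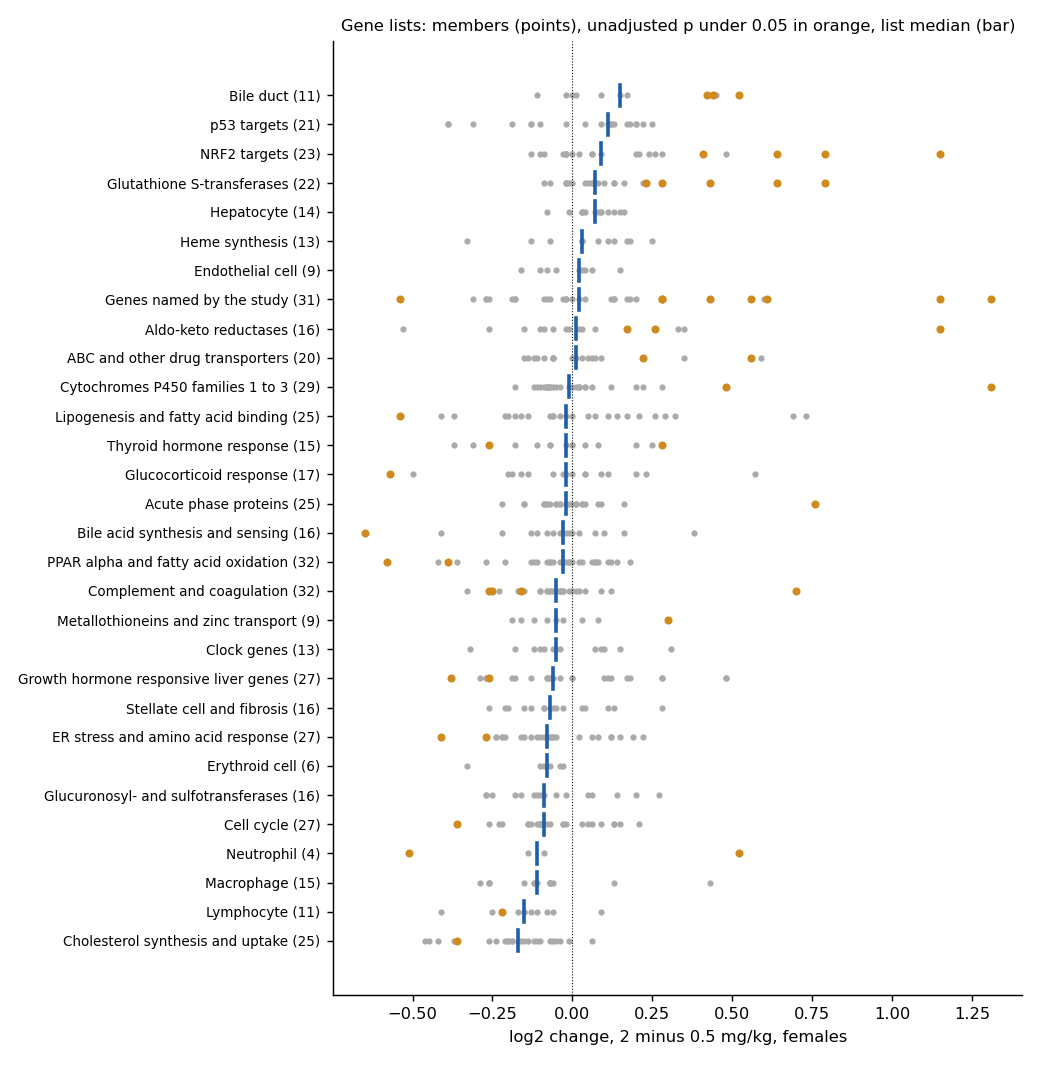
Log2 change from 0.5 to 2 mg/kg in females (x axis) of each member of 30 gene lists by its brightest probe, with the number tested after the list name. Orange points had an unadjusted p under 0.05, blue bars are list medians, and medians run from -0.17 for cholesterol synthesis and uptake to 0.15 for bile duct markers, with no member called in any list.

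Genes of cholesterol synthesis and uptake were nearly all slightly lower at 2 mg/kg: 24 of 25 members had a change below 0, with a median of -0.17 beside 0.01 over all probes. No member was called. Idi1, an isomerase of the mevalonate pathway, changed by -0.45 ± 0.22, and Sqle, the squalene epoxidase, by -0.46 ± 0.27. The mean level of the list per array was 0.93 to 1.63 at 0.5 mg/kg and 0.81 to 1.45 at 2 mg/kg, which overlapped, and the median ranged from -0.29 to -0.05 over the other settings. These genes share a regulator, SREBP2, so that the members are not independent. No p53 target of 21 had an unadjusted p under 0.05 (median 0.11), and 1 cell cycle gene of 27 did, Ccnb2 (-0.36 ± 0.13, list median -0.09). Ccnb2 was above background in 2 of 5 rats at each dose, and its change was -0.06 with no slide term and -0.17 without rat 68. The ER stress list had 2 of 27 members with an unadjusted p under 0.05: Sdf2l1 (-0.41 ± 0.14) and Atf5 (-0.27 ± 0.13). Both were below 0, against 2.31% of all probes below 0 and 7.86% in either direction. In the complement and coagulation list there were 3 below 0 (Cfi, Klkb1 and C8a) and 1 above 0 of 32, against 2.31% and 5.55% of all probes. The latter, C6, a component of the membrane attack complex, changed by 0.70 ± 0.26, and by 0.25 without rat 68, which was at 4.61 while the other 9 rats were at 6.69 to 8.17. The mean of C6 at 2 mg/kg, 7.16, lay below that of the female controls, 8.01.

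No marker of another cell type was called. Of 11 bile duct markers tested, 3 had an unadjusted p under 0.05, all above 0, against 5.55% of all probes: Cd24 (0.44 ± 0.13), Epcam (0.42 ± 0.16) and Cftr (0.52 ± 0.20), the last above background in 1 of 5 and 3 of 5 rats. The cytokeratins Krt19 and Krt7 changed by 0.45 ± 0.23 and -0.02 ± 0.10, Cldn7 by 0.01, Aqp1 by 0.00 and Slc4a2 by -0.11, and 3 of the 11 were below 0. The mean level of the bile duct list per array was -1.07 to -0.83 at 0.5 mg/kg and -0.90 to -0.56 at 2 mg/kg, its median change was 0.15 in females and 0.42 in males, and 6 of the 11 were above background on all 10 arrays. In liver pieces, more cells of a type and more RNA per cell cannot be told apart. The part of these markers in the changes of the named genes was not tested. Macrophage markers were below 0 in 13 of 15, with a median of -0.11 and none at an unadjusted p under 0.05. For comparison, 46.6% of the 17239 probes with under 2-fold sex difference in controls were below 0. That share was 52.0% with no slide term and 26.7% with median centring, so it moved with the processing. Of 11 lymphocyte markers 10 were below 0 (median -0.15), of which Cd79b reached an unadjusted p under 0.05 (-0.22 ± 0.08, and 0.00 with no slide term); it was above background in 2 of 5 and 1 of 5 rats. Stellate cell and fibrosis markers (median -0.07) and endothelial markers (median 0.02) had no member at that level, and hepatocyte markers had a median of 0.07.

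The same step had more calls in males. There, 199 probes were called (1.13%) and 3833 had an unadjusted p under 0.05 (21.7%). The male and female steps rest on different arrays, and the shared slide terms give their errors a correlation of 0.07. Both steps use the same variance estimate of each probe, however, so their p-values are not independent. A probe with a low estimate passes more easily in both sexes, and its part in the shares below was not tested. Of the 126 probes called higher in males, 114 were above 0 in females and 51 (40.5%) had an unadjusted p under 0.05 in the same direction, against 5.55% of all probes. Of the 73 called lower, 61 were below 0 in females and 15 (20.5%) had an unadjusted p under 0.05, against 2.31% of all probes. The median step of these probes was 0.74 in males and 0.28 in females for the former, and -0.71 and -0.15 for the latter. With no slide term, 36 probes were called in males, all 36 had the same sign in females and 13 had an unadjusted p under 0.05. Among the genes below this limit in both sexes, Gstp1 changed by 0.79 in females and 2.28 in males, A2m, the protease inhibitor alpha-2-macroglobulin, by 0.76 and 1.43, Kif12, a kinesin of epithelia, by 0.69 and 1.04, and Mgmt, which repairs alkylated guanine, by 0.55 and 0.59.

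**Figure D4:**
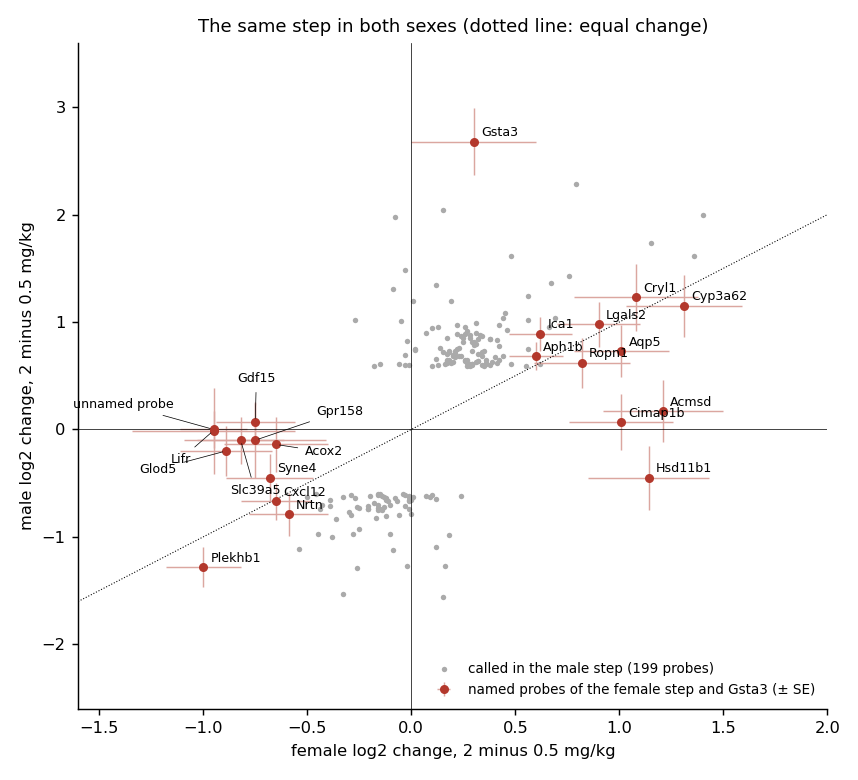
Log2 change from 0.5 to 2 mg/kg in females (x axis) and in males (y axis), for the 199 probes called in males (grey) and the named probes of the female step with Gsta3 (red, ± SE). Plekhb1, Cyp3a62 and Lgals2 lie near the line of equal change, Hsd11b1, Acmsd and Cimap1b lie to its right, and Gsta3 stands far above it.

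The difference of the step between the sexes was called for 1 probe (0.00566%), and 1325 probes had an unadjusted p under 0.05 (7.5%). The called probe is one of 2 for Gsta3, an alpha-class glutathione S-transferase. In females its levels were 3.56, 3.76, 3.33, 3.97 and 3.49 in rats 62, 64, 68, 70 and 72 and 3.75, 4.00, 3.92, 4.20 and 3.97 in rats 82, 83, 85, 90 and 92, a change of 0.30 ± 0.30. In males the level was 0.32 ± 0.77 (SD, n = 5) at 0.5 mg/kg and 2.91 ± 0.31 (SD, n = 5) at 2 mg/kg, a change of 2.68 ± 0.31. The difference of -2.38 ± 0.41 passed (limma, adjusted p = 0.0263). The male mean at 2 mg/kg was still below that of the female controls (3.73 ± 0.25, SD, n = 5). The brighter probe of Gsta3 did not show this: its changes were 0.16 in females and 0.04 in males, and the alpha-class genes are close paralogs. The call was lost with median centring, with the scanner software log ratio, with treat, which tests against 1.5-fold, and without any of rats 62, 64, 70, 82, 85 and 92.

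**Figure D5:**
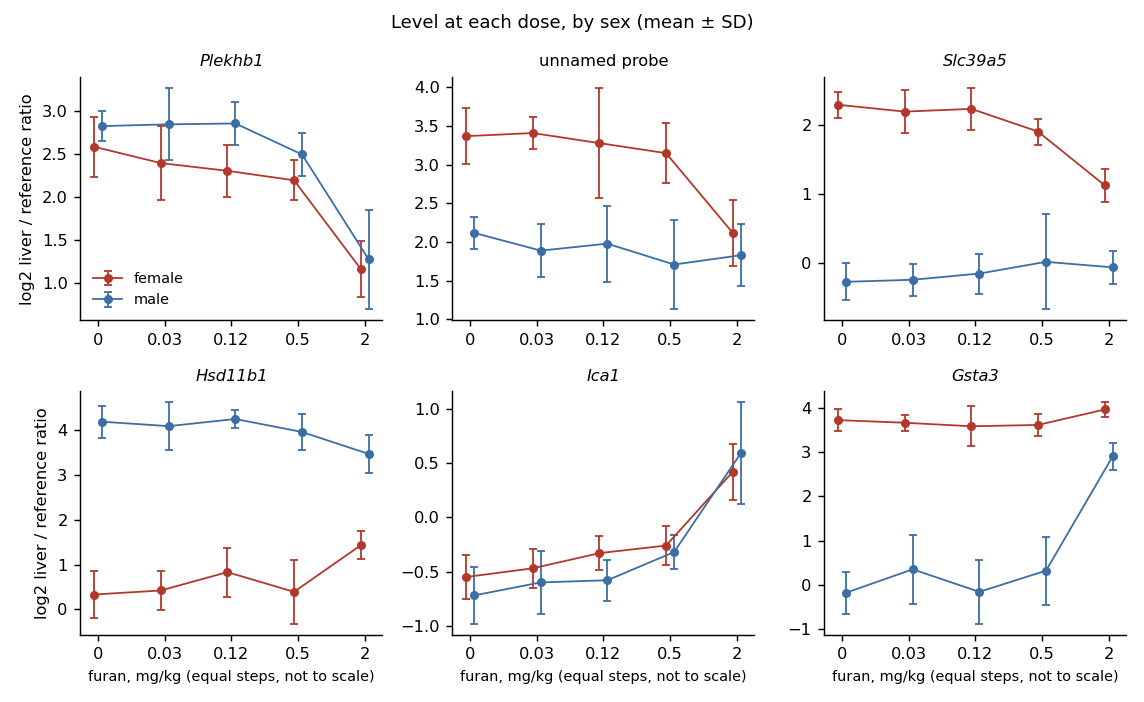
Mean log2 liver over reference ratio ± SD (y axis) at each dose (x axis, equal steps) in females (red) and males (blue), with 5 arrays per group except 3 for males at 0.03 mg/kg. Plekhb1 and Ica1 run together in both sexes, while the unnamed probe, Slc39a5, Hsd11b1 and Gsta3 start at different levels in females and males.

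Several of the named probes were also sex-biased in untreated rats, and the step was therefore set beside the sex difference on the 0 mg/kg arrays, a division chosen after these values were seen and described without a test. In controls Slc39a5 was at 2.30 ± 0.19 in females and -0.27 ± 0.27 in males (SD, n = 5 each), and Hsd11b1 at 0.33 ± 0.52 in females and 4.19 ± 0.36 in males (SD, n = 5 each). At 2 mg/kg the female levels were 1.13 and 1.43, between those of the female and the male controls. Of 251 probes at least 2-fold higher in control females, 184 (73.3%) had a female step below 0, with a median of -0.12. Of 171 probes at least 2-fold higher in control males, 50 (29.2%) had a female step below 0, with a median of 0.14, and of the other 17239 probes 46.6% did, with a median of 0.01. With no slide term, where control arrays do not enter the step, these shares were 86.1%, 48.0% and 52.0%. There the share of the male-biased probes was near that of the remaining probes. With median centring they were 62.5%, 15.8% and 26.7%. The list of growth hormone responsive liver genes had a median of -0.06, with 2 of 27 members at an unadjusted p under 0.05. Both were below 0, against 2.31% of all probes below 0 and 7.86% in either direction.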

How the data were processed

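The deposited scanner files give the median spot intensity and local background of each channel, as extracted with Agilent Feature Extraction 10.7.3.1 by the authors (liver in Cy5, reference in Cy3), beside its log10 ratio. The authors also deposited log2 ratios normalised in R as a series matrix. Here intensities were corrected with normexp (offset 50), normalised by loess within each array and averaged over the unflagged spots of a probe. A probe entered the tests if 4 or more arrays of some group had liver signal well above background. RefSeq accessions named 18004 of 30367 probes. Limma 3.58.1 (R 4.3.3) was fitted with a mean per group of sex and dose and slide as a block, over 48 arrays, and p-values were adjusted by Benjamini-Hochberg over 17661 probes. A call needed an adjusted p of at most 0.05 and 1.5-fold. The labels name rats but not cages or extraction days. Spots per array are fixed, and the number of arrays limits the precision. Of the 49 matrix columns, 7 correlated best with the scanner file of their own sample, 40 with another of the same group and 2 with another group, so samples follow the scanner files. None of the 10 columns compared here matched its own file: 9 matched another of the same dose and 1, weakly (r = 0.58), a file of the other dose. Which side is mislabelled is unknown, so rat numbers are those of the scanner files. Slides come from the scanner files too, so the slide term may be set on the wrong matrix columns. The counts and shares from the matrix values with slide are therefore a weak check on the main fit. The fit was tested on simulated data. Named genes were called probes, filled to 10 in each direction by unadjusted p at 1.5-fold, and the 2 members of smallest p in each list. The groups compared, the gene lists and the motifs were chosen with earlier results of these data known. Alternatives covered slide, arrays, normalisation, background, filter, threshold and each array left out.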

Additional observations from a re-analysis of the deposited data

Results flagged for a closer look

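The step differed between the sexes for 1 probe of Gsta3, with a difference of -2.38 between the female and the male change. For the named probes, each group of 5 rats was searched for a single rat far from the other 4, and 10 of 160 groups held one, beside about 1 in 20 that chance gives. At 2 mg/kg these were rat 82 for Hsd11b1 (1.97) and for the dimmer Abcb1b probe (0.07), rat 92 for Cryl1 (2.86), rat 83 for Akr1a1 (0.69) and Dgat1 (1.54), and rat 90 for Col5a1 (-2.87). At 0.5 mg/kg they were rat 70 for Cxcl12 (3.30), rat 72 for Crat (2.06) and Slc39a1 (-0.28), and rat 62 for Dusp1 (1.32).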

How the results depend on the processing

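The count of called probes was 2 with slide as a random block, with no background subtraction, with a stricter filter and with no fold minimum. It was 0 with no slide term, in the 10 arrays alone, on the slides that hold both doses, with all 49 arrays, with median centring, with the series matrix values (with slide or, chosen after seeing the data, without it) and with treat against 1.5-fold. It was 1 in the 25 female arrays alone and with no filter, 8 from the liver channel alone, 13 with the scanner software log ratio and 20 with array weights, and 0 to 7 with 1 array left out. The count for the difference between the sexes was 0 with median centring, the scanner log ratio and treat, 2 with array weights and 0 to 1 with 1 array left out. The difference in the share of spots above background was -4.15 to 1.13 percentage points with 1 array left out. Of 1974 values of named probes, 13 changed sign: Acmsd with the scanner log ratio (-0.01), Gsta2 with the scanner log ratio (-0.05) and the series matrix with slide (-0.06) and without (-0.20), C6 (-0.20) and Col5a1 (0.05) with the matrix without slide, Slc39a1 with median centring (0.01), and Tf with no slide term (-0.11), in the 10 arrays alone (-0.11), with the scanner log ratio (-0.09), the matrix with slide (-0.02) and without (-0.17) and the liver channel (-0.02). The causes were not tested. No paired analysis was possible because the groups compared share no rat number; slide, which pairs some arrays of both doses, was a block in the fit.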

Other observations

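Thyroid hormone response genes, glucocorticoid response genes, clock genes, heme synthesis genes and metallothioneins with zinc transporters had list medians between -0.05 and 0.03 at the step from 0.5 to 2 mg/kg in females, with no member called. Among acute phase proteins A2m was the exception in size (0.76 ± 0.32, limma, adjusted p = 0.539), while the list median was -0.02. Afp, which encodes alpha-fetoprotein, the albumin-like protein of fetal liver, was in no list. Chosen after its values were seen, it changed by 0.53 ± 0.11 in females (limma, adjusted p = 0.112) and by 0.23 in males (limma, adjusted p = 0.236).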
